A study of Mus musculus with 12 samples.

Results

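In the established mouse melanoma cell line B16F10, 46 protein-coding genes were lower in cells labelled as knocked out for p300, stood at a like level when CBP was knocked out as well, and stood near control when CBP alone was knocked out. They were drawn from 54752 rows of a table of RNA sequencing counts, of which 21921 are protein-coding and 10017 of those had a control mean of at least 3 CPM. CPM (counts per unit of library total, after scaling between libraries) are the level unit throughout. The members were chosen on these values themselves. With L standing for log2(group mean CPM + 0.5), a member has L lower in p300KO than in ctl by at least 0.8, L within 0.4 between dKO and p300KO, and L within 0.4 between CbpKO and ctl. The differences below are all differences in L, and levels are in CPM. Because the rule used every group, the members' differences are given as a description with no test.

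There were 12 libraries in 4 groups of 3. The group ctl has the genotype given as wild type, p300KO lacks Ep300, CbpKO lacks Crebbp and dKO lacks both, as labelled. No treatment or time course was applied, and all groups grew in the same serum-containing medium. Whether the libraries of a group came from different cultures, and whether each knockout line is 1 clone or a pool, is not in the labels, so p-values measure only the spread between these libraries, which may be technical.

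p300 and CBP are paralogous acetyltransferases that transcription factors recruit to enhancers and promoters, where they acetylate histones and other proteins. They share most of their domains and many partners, and each can stand in for the other at many genes. A gene that is lower without p300, and whose level does not depend on whether CBP is there, is one where that exchange is not seen in the transcript level. Melanocytes and melanoma cells descend from the neural crest, which also gives rise to Schwann cells and other glia.

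Library totals ran from 64257251 to 85604243 counts. The labels were checked against the targeted genes first. Crebbp stood at 64.7 ± 7.00 CPM in ctl (SD, n = 3), 80.7 ± 11.9 in p300KO, 34.5 ± 3.60 in CbpKO and 63.97 ± 6.13 in dKO. Ep300 stood at 94.4 ± 7.72 in ctl, 85.0 ± 8.79 in p300KO, 104 ± 12.4 in CbpKO and 148 ± 11.1 in dKO. Crebbp was lower in CbpKO, but its dKO libraries overlapped ctl, and so did the p300KO libraries for Ep300, which stood highest in dKO. Counts per gene do not show which exons are present and do not measure protein, so p300KO, CbpKO and dKO mean the libraries so labelled throughout. All 8 melanocyte markers were at 1 CPM or more in every group, with a summed level of 19999 to 21944 CPM in ctl, 14616 to 15327 in p300KO, 18783 to 19582 in CbpKO and 6682 to 6851 in dKO. No endothelial or epithelial marker reached 1 CPM in any group. Of 7 fibroblast markers 3 or 4 did, with a summed level of 10.4 to 12.8 CPM in ctl, 18.4 to 24.4 in p300KO, 13.0 to 16.8 in CbpKO and 15.0 to 16.4 in dKO. These markers did not move together. Between ctl and p300KO, Col1a1 went from 2.59 to 13.8 CPM and Pdgfra from 1.39 to 1.82. Pdgfrb went from 4.47 to 4.43 and Col1a2 from 3.35 to 0.681. Of 6 immune markers 1 reached 1 CPM, Cd68, and 3 or 4 were at 0. Their summed level was 1.70 to 2.17 CPM in ctl, 3.25 to 3.84 in p300KO, 1.49 to 1.87 in CbpKO and 5.48 to 6.72 in dKO. The part of these levels in the members' values was not tested.

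The 46 members kept part of their expression without p300. Their p300KO level ran from 15.6% to 56.7% of ctl, with a median of 45.99%, and 28 of them were under 50%. None was at 0 counts in any library, the lowest count being 32. Their p300KO minus ctl difference ran from -2.47 to -0.80 with a median of -1.02, beside a median of -0.01 over the 10017 genes. In CbpKO they stood at 74.3% to 122% of ctl, with a median of 91.3%. In dKO they stood at 13.8% to 59.9% of ctl, with a median of 39.4%. Within the limits that the rule sets, the members leaned to one side. In dKO 37 of 46 were lower than in p300KO (80.4%), beside 46.8% of the 10017 genes. In CbpKO 36 of 46 were lower than in ctl (78.3%), beside 48.6% of the 10017. The lean was not particular to the members. Of the 205 genes lower in p300KO by at least 0.8, members included, 89.3% and 87.3% were lower in the same comparisons. Both comparisons use group means that also chose the members, so this lean is a description, and the genes are called p300-dependent by their rule alone.

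**Figure D1:**
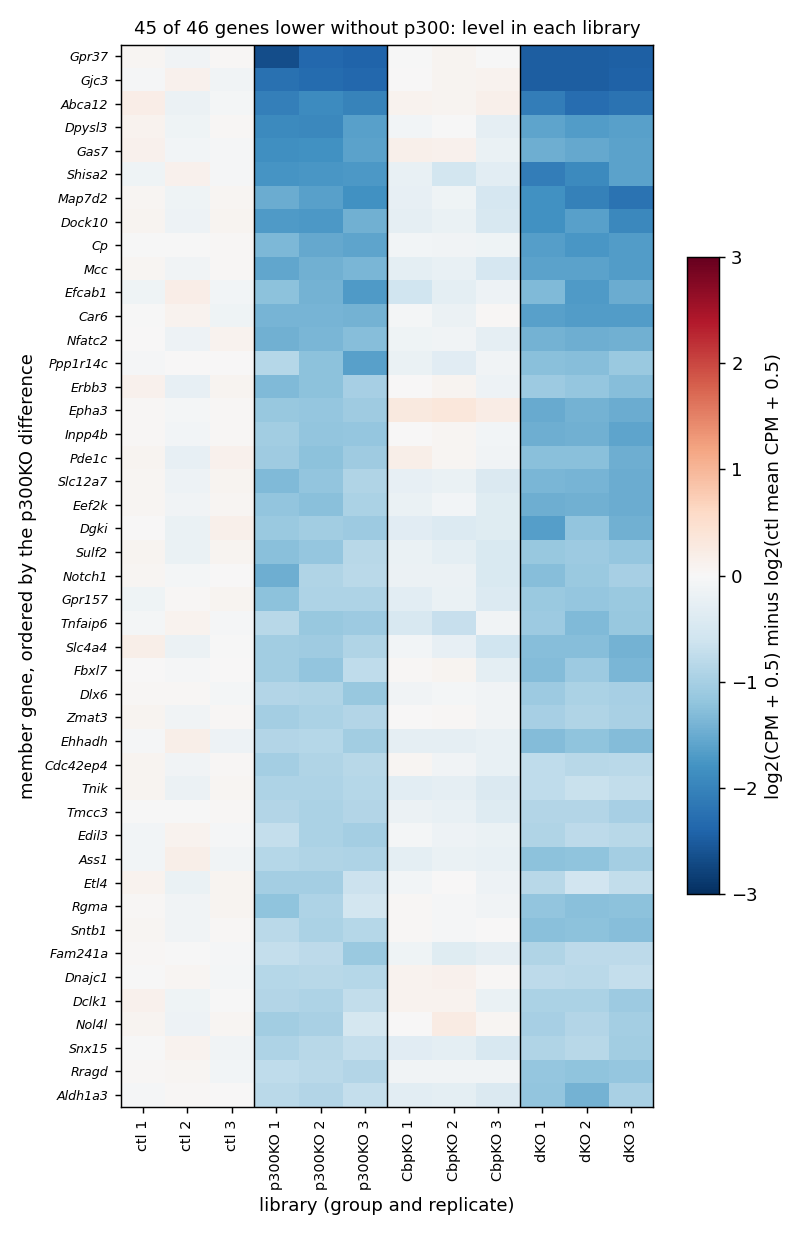
Level of 45 of the 46 members (rows) in each of the 12 libraries (columns), as log2(CPM + 0.5) minus log2(ctl mean CPM + 0.5), blue lower and red higher than ctl. The p300KO and dKO columns are blue in every row, while the CbpKO columns are near white, with Epha3 the reddest row there at a group difference of 0.28.

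Counts of calls are given with the share of all genes called. The edgeR quasi-likelihood test, adjusted over 18434 tested genes with a threshold of 0.05, called all 46 members lower in p300KO than in ctl, where 8.83% of tested genes were called lower and 7.27% higher. All 3 p300KO libraries lay below all 3 ctl libraries for 46 of 46, as they did for 18.3% of the 10017 genes. In CbpKO against ctl, 3 members were called lower (Mcc, Snx15 and Tnik; 1.61% of tested genes were) and 1 higher (Epha3; 1.52% were). At an unadjusted p under 0.05 the former count was 19 (8.45% of tested genes), and by DESeq2 it was 6 (3.48% of genes with an adjusted p). In that comparison the libraries lay apart without overlap for 21 members on the lower side (9.98% of the 10017 genes) and for 1 on the higher side (11.8%). In dKO against p300KO, 15 members were called lower (16.6% of tested genes) and 0 higher (18% of tested genes), with 2 higher at an unadjusted p under 0.05 (22.4%) and 0 by DESeq2 (18.6%). There 19 lay wholly lower (26.4% of the 10017) and 3 wholly higher (32%), the latter being Gas7, Tnik and Dnajc1. In dKO against CbpKO all 46 were called lower (21.8%), and all 46 lay wholly lower (34.3%). The rule used the means behind each of these comparisons, so nothing is read from the members' counts. The comparisons also share libraries: ctl serves both single knockouts, and p300KO enters both the loss of p300 and the added loss of CBP.

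Among the 7 genes grouped as cell-surface receptors and ligands, Gpr37 had the lowest value of all members. Gpr37 encodes an orphan receptor of glia and neurons related to the endothelin receptors (ENSMUSG00000039904, mm10 chromosome 6, 25665878 to 25690729, minus strand). It stood at 17.3, 15.3 and 17.0 CPM in ctl, 2.19, 2.81 and 2.74 in p300KO, 16.4, 17.4 and 16.5 in CbpKO and 2.58, 2.57 and 2.60 in dKO. The 6 libraries labelled as lacking p300 lay together far below the other 6, and the CbpKO and dKO values overlapped those of ctl and p300KO respectively. Its difference was -2.47 in p300KO, 0.02 in CbpKO and 0.00 between dKO and p300KO. Erbb3, the neuregulin receptor of the Schwann cell and melanocyte lineages, stood at 53.9, 41.6 and 51.8 CPM in ctl and 19.3, 20.6 and 24.4 in p300KO. It stood at 49.4, 51.9 and 44.3 in CbpKO and 22.6, 21.8 and 19.8 in dKO. Here too ctl overlapped CbpKO and p300KO overlapped dKO, with differences of -0.02 and -0.00, beside -1.18 for p300KO against ctl.

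Epha3, an ephrin-A receptor, was the member with the highest CPM. It stood at 302, 285 and 301 CPM in ctl, 134, 132 and 140 in p300KO, 365, 372 and 343 in CbpKO and 103, 110 and 105 in dKO. Its 4 groups did not overlap at all, so that CbpKO lay above ctl and dKO below p300KO. Its response to p300 loss was thus -1.13 with CBP present and -1.76 (dKO minus CbpKO) with CBP absent, the widest such gap on the lower side, at -0.63. Shisa2, grouped with these genes, encodes an endoplasmic reticulum protein that holds back receptors for Wnt and FGF, and not a cell-surface receptor or ligand. It stood at 3.05, 3.72 and 3.28 CPM in ctl, 0.625, 0.642 and 0.667 in p300KO, 2.80, 2.15 and 2.60 in CbpKO and 0.413, 0.520 and 0.770 in dKO. CbpKO lay wholly below ctl, and at under 1 CPM p300KO and dKO overlapped. Gpr157, an orphan G protein-coupled receptor, stood at 3.05, 3.48 and 3.65 CPM in ctl, 1.17, 1.56 and 1.56 in p300KO, 2.62, 2.88 and 2.44 in CbpKO and 1.29, 1.24 and 1.30 in dKO. Notch1, the receptor for Delta and Jagged ligands, had a difference of -1.03 in p300KO, and Rgma, a repulsive guidance cue that binds neogenin, one of -0.88. Notch1 stood in p300KO at 2.32, 3.69 and 4.01 CPM and Rgma at 3.49, 4.30 and 5.73, so that the p300KO libraries of both genes spread by over 1 CPM.

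**Figure D2:**
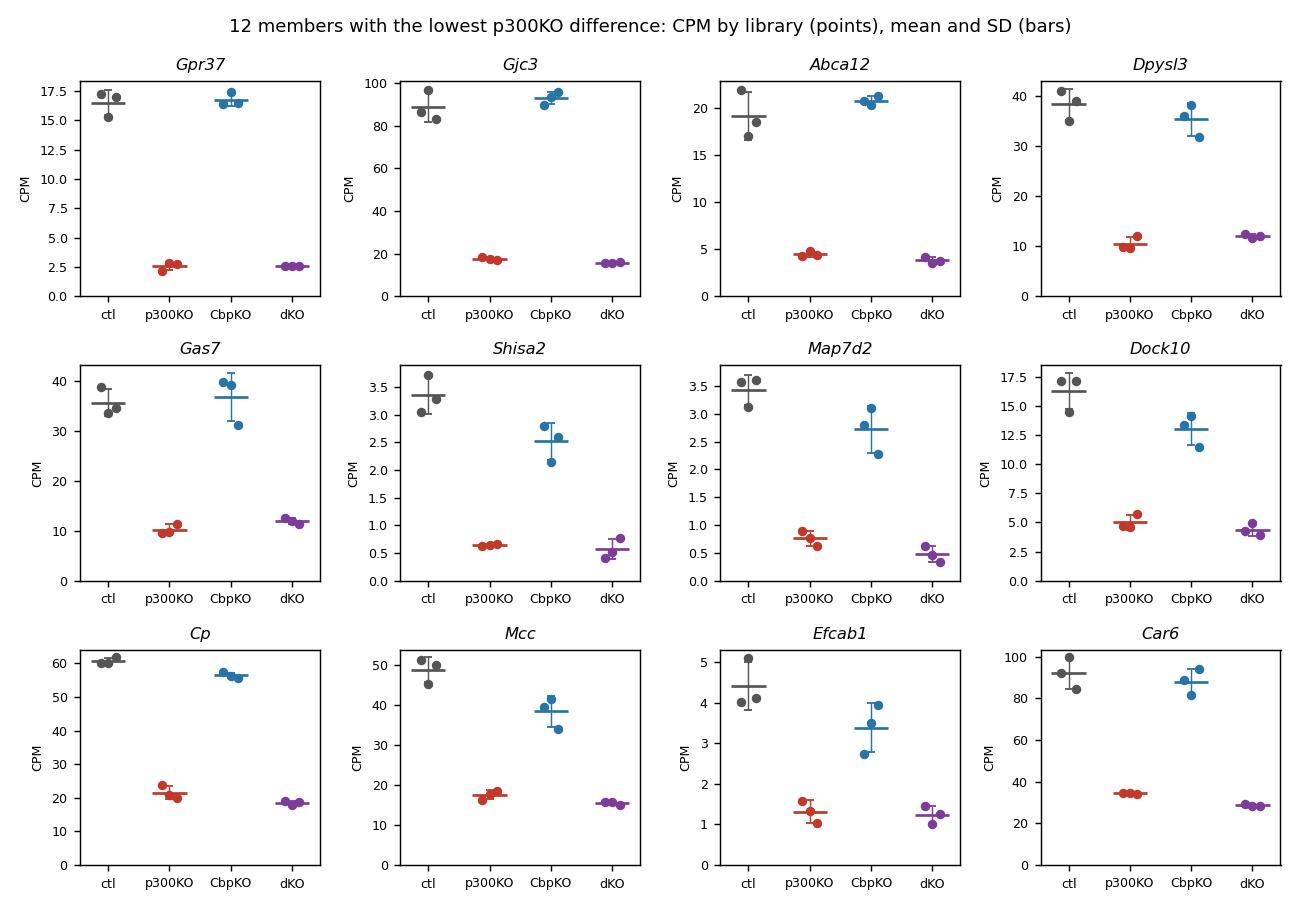
CPM in each library (points) for the 12 members with the lowest p300KO difference, by group, with the mean and SD of 3 libraries (bars). In every panel the p300KO and dKO points lie below all ctl and CbpKO points, from Gpr37 at -2.47 to Car6 at -1.41.

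Of 5 channels and transporters, Gjc3 and Abca12 came next after Gpr37 among all members. Gjc3 encodes a gap junction connexin of myelinating glia (ENSMUSG00000056966, chromosome 5, 137953461 to 137963098, minus strand). It stood at 86.3, 96.8 and 83.0 CPM in ctl, 18.4, 17.5 and 17.0 in p300KO, 89.7, 93.2 and 95.5 in CbpKO and 15.6, 15.6 and 16.1 in dKO. All dKO libraries lay below all p300KO libraries, by a difference of -0.16, against -2.30 for p300KO and 0.07 for CbpKO. Abca12, a lipid transporter best known from the skin barrier (ENSMUSG00000050296, chromosome 1, 71242276 to 71414910, minus strand), stood at 22, 17.1 and 18.6 CPM in ctl and 4.25, 4.87 and 4.45 in p300KO. It stood at 20.8, 20.4 and 21.3 in CbpKO and 4.20, 3.53 and 3.77 in dKO. CbpKO lay within the ctl range and dKO wholly below p300KO.

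Slc12a7 and Slc4a4 carry ions. Slc12a7, a potassium chloride cotransporter, stood at 87.4, 76.4 and 89.8 CPM in ctl, 33.7, 36.9 and 45.3 in p300KO, 71.5, 73.6 and 62.1 in CbpKO and 32.3, 31.9 and 29.9 in dKO. Its CbpKO libraries lay wholly below ctl and its dKO libraries wholly below p300KO. Slc4a4, a sodium bicarbonate cotransporter, stood at 14.1, 10.9 and 12.2 CPM in ctl, 5.81, 5.69 and 6.44 in p300KO, 11.7, 10.4 and 8.01 in CbpKO and 4.86, 4.82 and 4.34 in dKO. For Slc4a4, CbpKO overlapped ctl and dKO lay wholly below p300KO. All 5 channels and transporters were lower in dKO than in p300KO, as were 37 of the 46 members. So were 89.3% of the 205 genes lower in p300KO by at least 0.8.

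The 8 genes of the cytoskeleton and membrane shape had the lowest group median, at -1.26. Dpysl3, of the collapsin response mediator family that steers growth cones, stood at 40.9, 34.9 and 38.9 CPM in ctl, 9.85, 9.59 and 12.0 in p300KO, 35.9, 38.2 and 31.7 in CbpKO and 12.5, 11.7 and 12.0 in dKO. Gas7, a membrane-bending protein first found in growth-arrested cells, stood at 38.7, 33.6 and 34.5 in ctl, 9.51, 9.72 and 11.4 in p300KO, 39.7, 39.1 and 31.2 in CbpKO and 12.6, 12.0 and 11.4 in dKO. Both were slightly higher in dKO than in p300KO, by 0.19 and 0.22, and the Gas7 groups were wholly apart there only at the precision of unrounded values.

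Map7d2, a microtubule-associated protein, stood at 3.57, 3.11 and 3.61 CPM in ctl, 0.889, 0.763 and 0.619 in p300KO, 2.80, 3.10 and 2.27 in CbpKO and 0.620, 0.460 and 0.342 in dKO. Dock10, an exchange factor for small GTPases, stood at 17.2, 14.5 and 17.1 in ctl, 4.69, 4.60 and 5.71 in p300KO, 13.4, 14.2 and 11.5 in CbpKO and 4.26, 4.95 and 3.89 in dKO. For both, CbpKO lay wholly below ctl, with differences of -0.29 and -0.31. Sntb1, a syntrophin that links membrane proteins to the dystrophin complex, stood at 94.4, 84.6 and 92.4 in ctl, 51.4, 46.7 and 49.5 in p300KO, 92.2, 87.6 and 91.0 in CbpKO and 37.4, 38.5 and 37.2 in dKO. Its dKO minus p300KO value of -0.38 was the lowest among members and its CbpKO value was -0.00. Cdc42ep4, an effector of Cdc42, stood at 14.9, 13.1 and 14.4 in ctl, 6.74, 7.29 and 7.75 in p300KO, 14.7, 13.2 and 12.0 in CbpKO and 8.19, 7.69 and 7.78 in dKO. In that gene ctl overlapped CbpKO and p300KO overlapped dKO. The kinase Dclk1, which binds microtubules, and the sorting nexin Snx15 had p300KO differences of -0.84 and -0.82.

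The 9 genes of intracellular signalling had a median of -1.12. Mcc, named for mutations in colorectal cancer, stood at 51.2, 45.2 and 50.04 CPM in ctl, 16.3, 17.7 and 18.6 in p300KO, 39.6, 41.6 and 34.1 in CbpKO and 15.7, 15.7 and 14.9 in dKO. Its groups formed 4 separate levels, with CbpKO below ctl and dKO below p300KO. Pde1c, a phosphodiesterase for cyclic nucleotides that calcium and calmodulin activate, stood at 10.9, 8.57 and 11.2 in ctl, 4.58, 4.06 and 4.58 in p300KO, 11.6, 10.6 and 9.40 in CbpKO and 4.01, 4.01 and 3.40 in dKO. Nfatc2, a transcription factor driven by calcineurin, had a p300KO difference of -1.36, and Ppp1r14c, an inhibitor of protein phosphatase 1, one of -1.20. The inositol lipid phosphatase Inpp4b (-1.13), the kinase of translation elongation Eef2k (-1.12) and the diacylglycerol kinase Dgki (-1.08) were each lower still in dKO, with dKO minus p300KO values of -0.37, -0.35 and -0.33.

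Tnik, a kinase of the Wnt and JNK pathways, showed the opposite order to Epha3. It stood at 14, 11.6 and 13.7 CPM in ctl, 6.63, 6.67 and 7.06 in p300KO, 10.4, 10.9 and 9.52 in CbpKO and 7.58, 8.10 and 7.71 in dKO. CbpKO lay wholly below ctl while dKO lay wholly above p300KO, so its response to p300 loss was -0.90 with CBP and -0.37 without it. Rragd, a GTPase that couples amino acids to mTORC1 at the lysosome, stood at 84.8, 86.8 and 78.4 in ctl, 49.2, 47.6 and 44.98 in p300KO, 77.8, 77.7 and 77.5 in CbpKO and 36.9, 35.7 and 37.1 in dKO. It lay near the edge of the rule on both counts, at -0.81 for p300KO and -0.37 for dKO minus p300KO.

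Of 5 secreted or extracellular proteins, Cp and Car6 were the lowest. Cp encodes ceruloplasmin, a copper-binding ferroxidase. It stood at 60.1, 60.1 and 61.9 CPM in ctl, 23.6, 20.7 and 20 in p300KO, 57.4, 56.2 and 55.7 in CbpKO and 18.9, 17.8 and 18.8 in dKO. Car6, the secreted carbonic anhydrase, stood at 92.1, 99.9 and 84.5 in ctl, 34.5, 34.5 and 34.1 in p300KO, 88.7, 81.4 and 94.0 in CbpKO and 29.3, 28.3 and 28.4 in dKO. In both genes dKO lay wholly below p300KO. Per kilobase of exon, Car6 was the member with the highest ctl level, at 50.7 CPM per kb, ahead of Epha3 at 34.1 and Gjc3 at 20.4, while Nol4l was the lowest at 0.449. Sulf2, which trims heparan sulfate (-1.07), Tnfaip6, a hyaluronan-binding protein (-1.01), and Edil3, an integrin-binding matrix protein (-0.89), complete this group. All 5 were lower in CbpKO than in ctl, as were 36 of the 46 members. The share was 87.3% over the 205 genes lower in p300KO by at least 0.8. Of the 5, Tnfaip6 was the nearest to the limit at -0.40.

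The metabolic enzymes were Ehhadh, of peroxisomal fatty acid oxidation (-0.92), Ass1, of arginine synthesis (-0.89), and Aldh1a3, which makes retinoic acid (-0.80). Each was called lower again in dKO against p300KO, where 15 of the 46 members and 16.6% of tested genes were called lower. The rule used both means, so nothing about enzymes is read from these calls. Of 2 nuclear or RNA-binding proteins, Zmat3, a zinc finger protein induced by p53, stood at 121, 106 and 118 CPM in ctl, 56.5, 59.6 and 62.3 in p300KO, 116, 118 and 107 in CbpKO and 57.2, 61.4 and 58.3 in dKO. Its CbpKO and dKO minus p300KO values were both -0.01. The homeobox gene Dlx6 stood at 11.0, 11.0 and 10.3 in ctl, 5.67, 5.47 and 4.60 in p300KO, 9.89, 10.3 and 9.89 in CbpKO and 4.77, 5.35 and 5.18 in dKO.

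Dnajc1, a chaperone partner at the endoplasmic reticulum, stood at 72.9, 76.3 and 70.5 CPM in ctl, 40.4, 40.7 and 40.5 in p300KO, 78.6, 80.01 and 74.9 in CbpKO and 42.2, 41.5 and 44.2 in dKO. The ubiquitin ligase subunit Fbxl7 had a p300KO difference of -0.98. The last 5 members are less well known: Efcab1, an EF-hand protein, Tmcc3, Etl4, Fam241a and Nol4l. Efcab1 stood at 4.02, 5.11 and 4.10 in ctl, 1.58, 1.33 and 1.02 in p300KO, 2.73, 3.49 and 3.94 in CbpKO and 1.45, 1.00 and 1.26 in dKO. The other 4 had p300KO differences of -0.90 to -0.82.

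The response to p300 loss was read in 2 backgrounds, p300KO minus ctl with CBP and dKO minus CbpKO without it. These had medians of -1.02 and -1.10, and the 2 values differed by less than 0.3 for 38 of 46 members. The gap between them had a median of -0.00, and 23 members had the larger drop without CBP. The limits of the rule hold this gap within 0.8, so its median, its range of -0.63 to 0.53 and both counts are a description. Nothing about the part of CBP is read from them.

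The same rule was applied to the 8 libraries of 2 replicate numbers and the genes it chose were then read in the 4 libraries it had not used. The CPM read there were scaled over all 12 libraries. Since libraries of a group may be technical replicates, the held-out values are a description and not a separate experiment. With the libraries numbered 1 held out, 49 genes were chosen, and their median p300KO minus ctl difference was -1.01 in the libraries used and -1.09 in those held out, where 48 of 49 were lower and 37 by at least 0.8. With number 2 held out the 44 chosen genes had medians of -1.04 and -0.94, with 44 of 44 lower and 37 by at least 0.8. With number 3 held out the 59 chosen genes had medians of -1.02 and -0.92, with 59 of 59 lower and 42 by at least 0.8. Over all protein-coding genes that met the ctl minimum, 47.9%, 59.7% and 51.7% were lower in the libraries numbered 1, 2 and 3, and 2.33%, 2.23% and 1.95% were lower by at least 0.8. The held-out median of dKO minus p300KO was -0.23, -0.07 and -0.32 for numbers 1 to 3, against -0.15, -0.06 and -0.13 in the libraries that chose the genes. The held-out median of CbpKO minus ctl was -0.16, 0.06 and -0.22, against -0.23, -0.13 and -0.09. The former was thus farther from 0 in all 3 held-out sets, and the latter in 1 of 3. Of the 46 members, 38, 31 and 41 were among the genes chosen with numbers 1, 2 and 3 held out.

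Genes just inside and outside each threshold show how the rule cut. At the ctl minimum Shisa2 (3.35 CPM) and Gpr157 (3.39) were in, and Gng8 (2.81) and Fabp3 (2.56) were out. At the p300KO threshold Aldh1a3 (-0.80) and Rragd (-0.81) were in, and Arhgap28 (-0.80 after rounding) and Gng12 (-0.79) were out. For dKO minus p300KO, Sntb1 (-0.38) and Aldh1a3 (-0.37) were in, and Spsb4 (-0.40) and Cubn (-0.40) were out. For CbpKO minus ctl, Tnfaip6 (-0.40, just inside) and Dgki (-0.37) were in, and Lrrc4b (0.41) and Nid1 (-0.43) were out.

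The members were one class among the 205 genes that were lower in p300KO by at least 0.8. Of these 205, 133 (64.9%) were lower again in dKO by at least 0.4, 61 (29.8%) were within 0.4 of p300KO and 11 (5.37%) were higher. In CbpKO, 64 (31.2%) were lower than ctl by at least 0.4, 136 (66.3%) were within 0.4 and 5 (2.44%) were higher. The 46 members, within 0.4 in both, were 22.4% of the 205. The most common class was lower again in dKO and near ctl in CbpKO, with 83 genes (40.5%), and 49 (23.9%) were lower in both. The exchange of p300KO and CbpKO in the rule gave 0 genes. Only 14 genes of at least 3 CPM were lower in CbpKO by at least 0.8, and 13 of them were also lower in p300KO by at least 0.4. The same rule for genes higher in p300KO gave 22 genes.

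**Figure D3:**
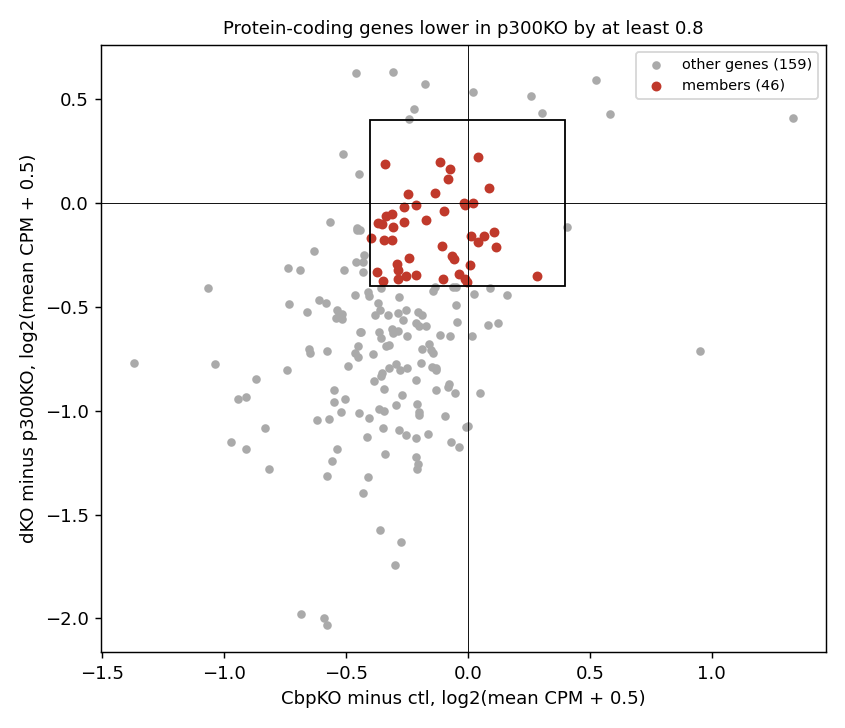
The 205 genes lower in p300KO by at least 0.8, by their CbpKO minus ctl difference (horizontal axis) and their dKO minus p300KO difference (vertical axis), both in log2(mean CPM + 0.5). The box marks the limits of 0.4, inside which lie the 46 members (red), and most of the other 159 genes (grey) lie below its lower edge.

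Genes of the same families were looked up to see whether the members' relatives moved with them. The relatives were picked by family and not by how they moved, after the members were known, and have values only. Of 95 paralogs in the table, belonging to 34 members, 48 had a ctl mean of at least 3 CPM. None of these 48 was lower in p300KO by 0.8, beside 2.05% of all expressed protein-coding genes. The count is near that share, so nothing about relatives is read from it. Of the 48, 34 were within 0.4 of ctl and 2 were higher by at least 0.8. Their median difference was -0.01, beside -0.01 over the 10017 genes. Of the 47 under 3 CPM, 2 were lower by at least 0.8 and 2 higher. Epha4 stood at 2.75 CPM in ctl and 0.653 in p300KO (-1.49) beside Epha3, and Abca13 at 1.14 and 0.173 (-1.29) beside Abca12. Epha2, of the Epha3 family, went the other way, from 1.04 to 10.7 CPM (2.87), as did Map7 beside Map7d2 (1.15). Since the members were chosen for being low, some gap from their relatives is given by the choice.

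Other relatives are given by their level or p300KO difference. Beside Erbb3, its partner receptor Erbb2 stood at 7.38 CPM in ctl and 10.0 in p300KO. Notch2, at 38.6 CPM in ctl, had a difference of -0.03 beside -1.03 for Notch1. Beside Dpysl3 (-1.82), Dpysl2 had -0.12 and Crmp1 -0.24. Beside Gjc3 (-2.30), the connexin Gjc1 had 0.02 and Gja1 had -0.42. Nfatc3 (0.02), Inpp4a (0.18) and Fnbp1 (0.19) were likewise near ctl beside Nfatc2, Inpp4b and Gas7. The lowest of the 48 were Epha7 at -0.74 beside Epha3 (-1.13) and Tmcc2 at -0.70 beside Tmcc3 (-0.90). On the other side stood Shisa5 at 0.82 beside Shisa2 and Cdc42ep1 at 0.86 beside Cdc42ep4.

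**Figure D4:**
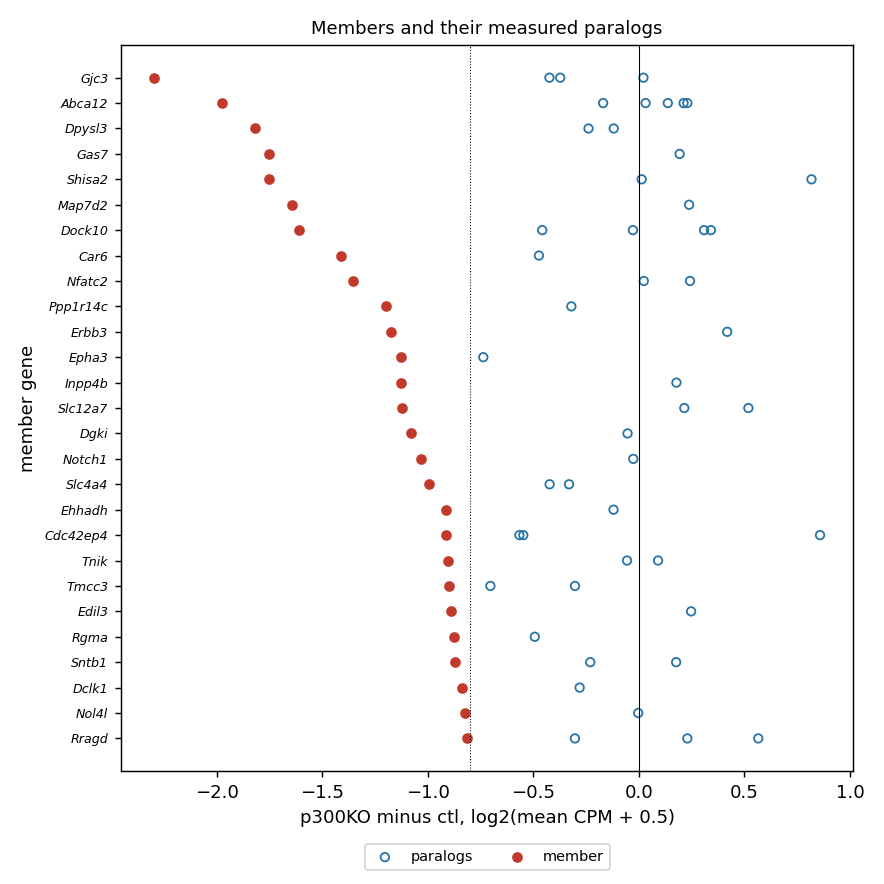
p300KO minus ctl difference in log2(mean CPM + 0.5) of the 27 members with a paralog of at least 3 CPM (filled) and of those 48 paralogs (open). The dotted line is at the threshold of -0.8, left of which lie all members, by their rule, and none of the paralogs. Of all expressed protein-coding genes, 2.05% lie there.

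Against 18 gene lists, 12 members were in at least 1 list and 34 in none, and 9 lists held no member. The list of neural crest, Schwann cell and glial genes held 3 members: Gpr37, Gjc3 and Erbb3. Of its 26 other tested genes, 13 fell and 3 rose in p300KO by the edgeR test, with a median log2 fold change of -0.29, beside 0.01 over all tested genes. Of these, S100b, a calcium-binding protein of glia, passed the test as lower and stood at 59.2 CPM in ctl and 20.9 in p300KO. It missed the rule because CbpKO also stood lower, at 39.5 CPM. It missed it also by a dKO minus p300KO value of -0.71. The 6 Schwann cell and glia markers checked beside these genes moved with them: 5 of 6 were at 1 CPM or more in every group, and their summed level was 274 to 293 CPM in ctl, 138 to 169 in p300KO, 206 to 239 in CbpKO and 102 to 108 in dKO. Whether that reflects fewer cells of a kind or less RNA per cell cannot be told apart in bulk RNA, and the part it has in the members' values was not tested.

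The lists of pigment cells and of lipid metabolism fell in large part and yet held no member. Of 31 tested melanocyte lineage and pigment genes, 21 fell and 0 rose in p300KO by edgeR, with a median of -0.50. None rose at an unadjusted p under 0.05, or by DESeq2. In dKO against p300KO 23 fell and 2 rose, with a median of -0.87. Over all tested genes 8.83% fell and 7.27% rose in p300KO against ctl, and 16.6% and 18% in dKO against p300KO. Kit, the stem cell factor receptor, stood at 12.9 CPM in ctl, 1.36 in p300KO, 15.6 in CbpKO and 2.16 in dKO, so that its dKO minus p300KO value of 0.51 kept it out. Of 57 genes of sterol and fatty acid metabolism, 33 fell and 4 rose, with a median of -0.30. Among developmental transcription factors, where Dlx6 is a member, 17 of the 153 others fell and 37 rose. Sox9, a neural crest regulator, had values of 27.5, 6.07, 27.9 and 8.99 CPM in ctl, p300KO, CbpKO and dKO and was kept out by a dKO minus p300KO value of 0.53.

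For most other lists with members, the counts of the remaining genes in p300KO are set beside the same shares of 8.83% fallen and 7.27% risen over all tested genes. Of 224 other solute carriers 49 fell and 17 rose (median -0.07). Of 55 other axon guidance genes 17 fell and 11 rose (median -0.12), and of 32 other receptor tyrosine kinases and ligands 5 fell and 5 rose (median 0.06). Of 96 other G protein-coupled receptors 20 fell and 9 rose (median 0.01), and of 69 other cyclic nucleotide genes 17 fell and 10 rose (median -0.01). Among listed genes that fell in p300KO and yet missed the rule, several stood lower again in dKO. The glycine receptor subunit Glrb had a dKO minus p300KO value of -0.69, the chemokine scavenger Ackr3 -0.71, and the Rac regulator Chn2 -0.83. Rapgef3, an exchange factor opened by cyclic AMP, had -0.94 there and -0.94 in CbpKO. The guidance cue Sema6a went the other way, at 0.43 and 0.58. The 7 lists not named above, which also hold no member, had medians from -0.01 to 0.25. A median does not show moves in both directions, and the counts of these lists are not reported here.

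The members lay on 17 chromosomes, with 8 on chromosome 2 (17.4% of the members, beside 8.26% of the 10017 genes). Within 1 Mb of each other lay 2 pairs: Gpr157 and Car6 on chromosome 4, 81.1 kb apart, and Dpysl3 and Mcc, 987 kb apart. Of 90 expressed non-members next to a member, 1 was lower in p300KO by at least 0.8 (1.11%, beside 2.05% of all expressed genes), 79 were within 0.4, and the median was -0.08. That 1 gene was Hapln1, a hyaluronan link protein beside Edil3, at -1.17. The members' genes were long, with a median span of 83.9 kb beside 25.8 kb over the 10017 genes and 63.2 kb over the 205. Exon length had medians of 6567, 4732 and 5871 bases. Gene length moved with the result, and its part was not tested beyond the length and GC trend given with the processing alternatives.

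Exon bases were shared with a gene on the other strand for 12 members, and 3 of those genes had at least 1 CPM in ctl. The strand setting of the counting is not given in the sources used here, so such reads cannot be told apart. The shared part was 1.13% of exon bases for Cp (with Hps3), 2.62% for Sulf2 (with Ncoa3) and 6.43% for Dnajc1 (with Mllt10).

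RefSeq promoters, from 250 bases before to 50 after the start, were found for 32 of the 46 members (69.6%). With fewer than 80% matched, a count of base content or motifs over the members is void and none is given. The 100 bases before the start are shown for the 3 lowest members with a single listed start outside the annotated gene body, to set the promoters of genes with a like response beside each other. They are from GRCm38.p6, written 5′ to 3′ on the gene's strand, with CpG dinucleotides in capitals: Gjc3 at chr5:137963099-137963198 (minus), Abca12 at chr1:71414911-71415010 (minus) and Shisa2 at chr14:59625181-59625280 (plus).
Gjc3: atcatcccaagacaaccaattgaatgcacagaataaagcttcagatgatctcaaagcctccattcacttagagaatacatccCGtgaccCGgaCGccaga
Abca12: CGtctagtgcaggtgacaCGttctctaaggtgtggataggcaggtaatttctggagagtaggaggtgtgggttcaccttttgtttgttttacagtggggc
Shisa2: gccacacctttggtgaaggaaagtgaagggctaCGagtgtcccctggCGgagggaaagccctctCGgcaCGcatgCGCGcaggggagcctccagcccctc
The stretches of Gjc3 and Abca12 held 3 and 2 CpG at a GC content of 45% and 49%, and that of Shisa2 held 6 CpG at 66%. The 3 genes with p300KO differences of -2.30, -1.97 and -1.75 thus differed in CpG content before their starts.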

How the data were processed

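RNA was measured in 12 B16F10 libraries, 3 in each of 4 groups. Per the labels, total RNA was column-purified and libraries came from a stranded mRNA kit. Per the submitters' processing notes, bcl2fastq, HISAT2, HTSeq and build mm10 were used. For the annotation release, tool versions and strand setting, nothing was given in the sources used here. Deposited by the authors were raw counts per gene, not normalized. Symbols, biotypes and positions were taken from GENCODE, which lacked 29 rows.

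CPM used the total of all rows and TMM factors. Contrasts were tested with edgeR 4.0.16 (R 4.3.3): filterByExpr, a robust quasi-likelihood fit over all 12 libraries with group as the only term, and Benjamini-Hochberg adjustment over 18434 genes. The biological coefficient of variation was 9.46%. The steps were tested on simulated data. DESeq2 1.42.0 was an alternative. No pair of replicates agreed within sampling noise.

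The members and lists were chosen with earlier results of these data known. Values in every library were given for the 12 lowest members, the 8 with the highest ctl CPM, up to 4 members of each list, and the targets, and others where a library pattern is described. Non-members named from lists were up to 2 a list, by smallest adjusted p. The members' lowest count in a library was 32, so precision is least for members under 1 CPM. Values of 1 member and of some other genes and lists are not reported here.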

Additional observations from a re-analysis of the deposited data

How the results depend on the processing

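The rule gave 46 genes as reported, 25 with a drop of at least 1 in place of 0.8, 107 with 0.6, 26 with limits of 0.3 in place of 0.4 and 72 with 0.5, so the number of members is set by these cutoffs. Without each library in turn it gave 42 to 57 genes. Of the 46, 27 remained members without each of the 12 libraries. Under 8 other settings 22 remained, and 19 did both. The 8 were other scalings, other pseudocounts, the group median, the replicate number as a block, and a length and GC trend removed. With a trend for exon length and GC content removed, chosen after seeing the data, 43 genes met the rule and 35 of them were members. Among those lost were Epha3, Inpp4b, Slc12a7, Eef2k, Dgki, Slc4a4, Rgma, Dclk1, Rragd and Aldh1a3. The cause was not tested. Under the settings that left the cutoffs as they were, the unplanned length and GC trend included, the p300KO differences of members kept their sign in 920 of 920 values. Of these, 15 moved by more than the spread between replicates, all at other pseudocounts. The members with the lowest CPM moved most, Shisa2 from -1.75 to -2.21 at a pseudocount of 0.1 and to -1.02 at 2. Of 612 counts over the other genes of the lists, 16 moved by over 1.5 times. Calls in CbpKO against ctl depended most on the fit. The 577 genes called became 321 with a replicate block, 1270 with no filter on low counts, 1230 with DESeq2, 257 with only the groups compared, and 214 to 774 without each library in turn. Without 1 library they fell to 365 (ctl 1), 246 (ctl 3), 299 (CbpKO 1) and 214 (CbpKO 2), and the cause was not tested. The other comparisons stayed within 1.5 times of their counts: 2968 for p300KO against ctl (2275 to 3204 without 1 library), 6376 for dKO against p300KO (4297 to 7095) and 7966 for dKO against CbpKO (6496 to 8448). With the replicate number as a block these were 2521, 5489 and 7304, and the rule gave 45 genes, all members. Libraries with the same number did not deviate together (correlations of -0.17 to 0.107, beside -0.23 to 0.21 for different numbers), so the numbers do not pair the libraries.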
